A study of Mus musculus with 12 samples.

Results

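The 10 genes described here build, bind or organise hyaluronan, or encode proteoglycans of the uterine matrix. They were taken by symbol from a fixed list of Has1, Has2, Cd44, Tnfaip6, Vcan, Dcn, Bgn, Lum, Ogn and Fmod, and all 10 were found among the 35896 genes with a matched transcript. Their RNA was measured in 12 libraries of whole uterus from wild-type Swiss Webster females, an outbred stock, aged 8 to 12 weeks. There were 3 libraries in proestrus and as many in estrus, in metestrus and in diestrus. The animals carried no other allele and no treatment in the labels, which did not say how a stage was assigned. Replicates are called by the number in their title, which ran from 1 to 3 for proestrus, from 3 to 5 for estrus and for diestrus, and from 5 to 7 for metestrus. The labels did not say that each library came from a separate animal, and p-values therefore measure only the spread between these samples.

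Hyaluronan is a long, unsulfated sugar chain that the synthases of the plasma membrane extrude into the matrix, where it holds water and makes tissue swell. Cells grip it through the receptor Cd44, and the secreted proteins Tnfaip6 and Vcan (versican) tie the chains to other matrix proteins. The small leucine-rich proteoglycans decorin (Dcn), biglycan (Bgn), lumican (Lum), osteoglycin (Ogn) and fibromodulin (Fmod) coat collagen fibrils and govern how they assemble. The uterus swells and regresses with each cycle under the ovarian hormones, and the comparison of stages asks which of these genes vary with it.

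All positions are on the GRCm38 assembly, from GENCODE M21, and span the whole annotated gene. Has1 lies on chromosome 17 from 17843323 to 17855205, Has2 on chromosome 15 from 56665627 to 56694539, Cd44 on chromosome 2 from 102811141 to 102901665 and Vcan on chromosome 13 from 89655312 to 89742509, each on the minus strand. Tnfaip6 lies on chromosome 2 from 52038009 to 52056686 and Bgn on chromosome X from 73483602 to 73495933, both on the plus strand. Dcn, from 97479609 to 97518143, and Lum, from 97565128 to 97572703, are neighbours on chromosome 10, also on the plus strand. Ogn lies on chromosome 13 from 49608046 to 49624501 and Fmod on chromosome 1 from 134037254 to 134048277, again on the plus strand. Exons of Has2 overlap those of Has2os on the opposite strand. Whether the counting used strand is not given in the sources used here, so Has2 values are uncertain in that respect.

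Promoter sequence is given for members that differed over the cycle, as the bases before an annotated start. Which start these RNAs used in the uterus was not measured. RefSeq entries were at hand for 7 of the 10 members and for 3 of the 4 that differed, namely Vcan, Cd44 and Ogn. Each line gives the 250 bases before the RefSeq start on GRCm38.p6, at chr13:89742513-89742762 on the minus strand for Vcan, chr2:102901666-102901915 on the minus strand for Cd44 and chr13:49607765-49608014 on the plus strand for Ogn. Capitals mark a GC box (GGGCGG on either strand) in Vcan and a TATA box (TATAAA on either strand, a pair of overlapping matches) in Ogn.
Vcan: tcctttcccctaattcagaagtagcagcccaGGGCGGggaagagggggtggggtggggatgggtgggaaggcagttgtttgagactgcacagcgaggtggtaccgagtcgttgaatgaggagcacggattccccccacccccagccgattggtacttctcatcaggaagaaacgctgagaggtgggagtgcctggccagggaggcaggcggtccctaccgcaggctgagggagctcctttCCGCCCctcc
Cd44: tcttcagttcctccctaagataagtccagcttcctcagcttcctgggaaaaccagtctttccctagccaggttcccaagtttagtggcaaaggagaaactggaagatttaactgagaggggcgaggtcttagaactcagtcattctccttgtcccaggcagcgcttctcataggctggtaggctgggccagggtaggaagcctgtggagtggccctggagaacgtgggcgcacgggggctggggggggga
Ogn: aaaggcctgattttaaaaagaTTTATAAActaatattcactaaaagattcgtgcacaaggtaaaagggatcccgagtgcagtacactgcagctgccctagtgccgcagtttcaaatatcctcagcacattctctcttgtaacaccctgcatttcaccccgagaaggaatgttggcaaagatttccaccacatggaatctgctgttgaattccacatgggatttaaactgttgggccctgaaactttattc
The Vcan promoter was 62.4% G and C, that of Cd44 56.4% and that of Ogn 42%, against a median of 52.4% over 32851 promoters. GC boxes began 219 and 10 bases before the Vcan start, a motif held by 32.7% of all promoters. The TATA box of Ogn lay between 229 and 222 bases before its start, and 12.4% of all promoters held that motif. The Cd44 window held none of the 7 motifs searched. No member's window held the full estrogen response element in palindromic form, which 0.0639% of all promoters held. Its half-site (AGGTCA, 14.0% of all promoters) was found in Tnfaip6 and Has1, and the progesterone response element half-site (TGTTCT, 16.1%) in Bgn. The cyclic AMP response element (TGACGTCA, 1.55%) was found in Has1 and the AP-1 site (TGAGTCA, 4.46%) in Tnfaip6. All motifs were searched on both strands, and a match is only a description of these letters.

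The libraries came from 3' TagSeq, which sequences polyadenylated RNA from its 3' end. They held between 1652841 and 2200563 estimated counts each. Levels are given as CPM, a gene's counts scaled by library size, here with TMM factors of 0.908 to 1.05. A library with 0 counts of a gene could have missed up to 3, which is 1.37 to 1.83 CPM. PCR copies could not be removed, so floors and counting intervals cover counting error only. The metestrus libraries were the least alike: the chi-square per degree of freedom between pairs of replicates was 10.5 to 15.4 in metestrus and 3.21 to 9.08 in the other stages. Markers of the uterine wall were present in every stage, with 12 fibroblast and stromal, 8 smooth muscle, 9 epithelial and 8 endothelial marker genes all tested.

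Of the 10 members, 9 had enough counts to be tested, and 4 of these 9 (44.4%) differed over the stages in edgeR's quasi-likelihood F test at an adjusted p under 0.05, against 23.2% of all 12052 tested genes. Those were Vcan, with an adjusted p of 0.00221 by edgeR, Dcn with 0.00468, Ogn with 0.0131 and Cd44 with 0.0161. The members, and the pathway lists below, were chosen with earlier results of these data known. The shares called among them are therefore descriptions and no test of a set. Vcan was lowest in estrus and highest in diestrus, and Cd44 was higher in diestrus than in estrus or proestrus. Dcn followed the opposite course to Vcan between estrus and diestrus, and Ogn was highest in proestrus. Has2 (edgeR adjusted p = 0.0756), Bgn (0.112), Tnfaip6 (0.155), Fmod (0.186) and Lum (0.359) did not pass the same F test. In bulk tissue, fewer cells of a type and less RNA per cell cannot be told apart.

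**Figure D1:**
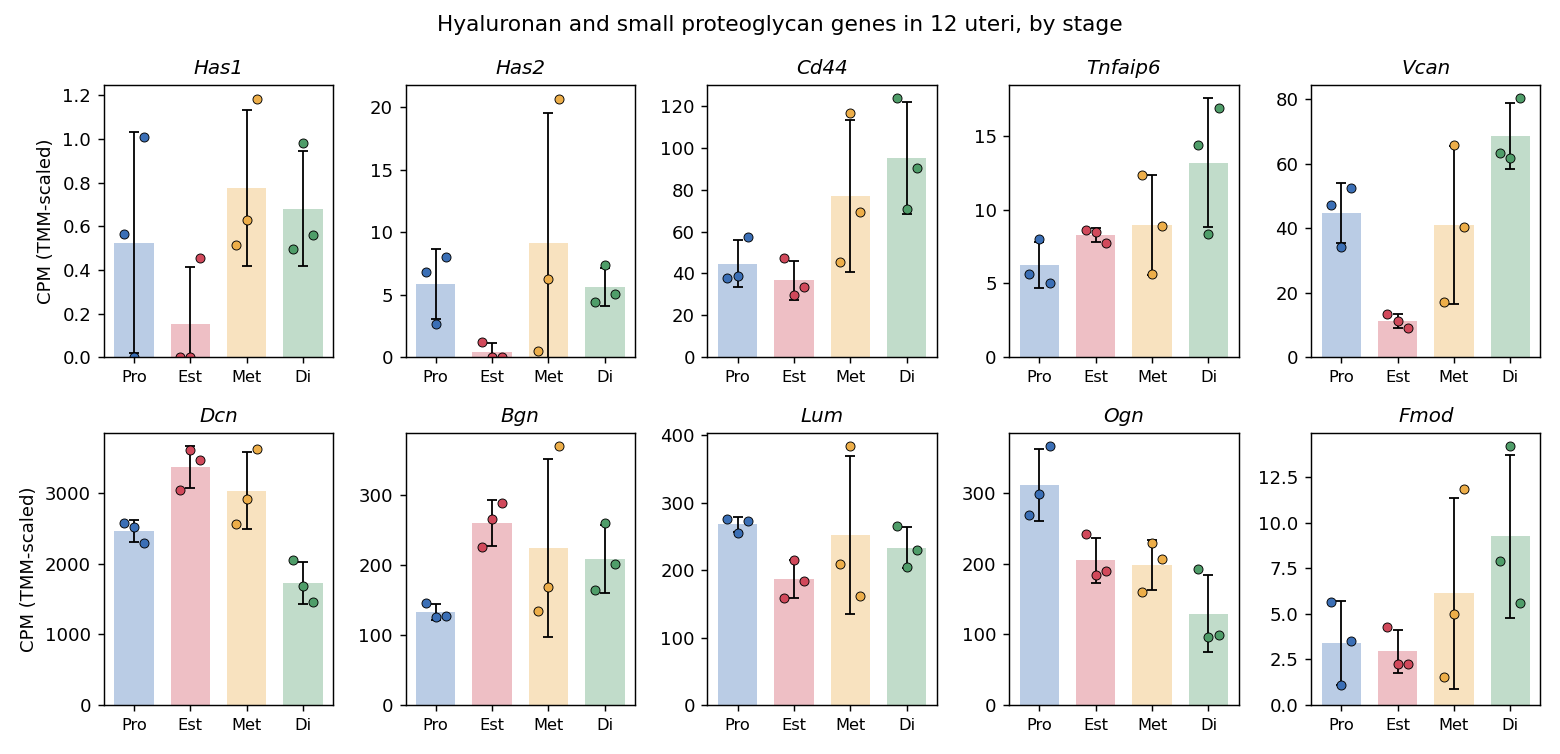
Level of each of the 10 genes (vertical axis, TMM-scaled CPM, its range set for each gene) in the 4 stages (horizontal axis); points are the 3 samples of a stage, bars their mean and error bars 1 SD, cut at 0. The 3 estrus samples of Vcan lie between 9.09 and 13.5 CPM, below the other 9, and the 3 diestrus samples of Dcn lie between 1454 and 2048 CPM, also below the other 9.

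Among the synthases, Has1 was close to undetected. Its counts in the 12 libraries summed to 12, with no library above 2, and it was not tested. At this depth no difference between stages was detectable for Has1. Has2, the main synthase of most tissues, had 6.80, 2.68 and 8.06 CPM in proestrus replicates 1, 2 and 3. In estrus it had 1.23, 0 and 0 CPM in replicates 3, 4 and 5, which came from 2, 0 and 0 counts. The metestrus values were 0.515, 6.27 and 20.7 CPM in replicates 5, 6 and 7, and those of diestrus 4.46, 7.36 and 5.06 CPM in replicates 3, 4 and 5. Every proestrus and diestrus sample lay above every estrus sample, while metestrus ran from the estrus range to the highest value of all. All 3 estrus libraries lay at or under the 3-count limit, so a fitted fold change depends on the prior count and only pooled counts give a ratio. Proestrus held 33 counts against 2 in estrus, a ratio of 16.4 with a 95% exact counting interval of 4.20 to 141 after scaling by library size. For diestrus, with 33 counts, the ratio to estrus was 15.8 with an interval of 4.04 to 136, and for metestrus, with 46 counts, it was 24.6 with an interval of 6.43 to 209. By edgeR's quasi-likelihood test Has2 was higher in metestrus than in estrus (adjusted p = 0.0427) and in diestrus than in estrus (adjusted p = 0.0490), and the difference between estrus and proestrus did not pass (adjusted p = 0.0556). Leaving out any 1 library other than metestrus replicate 5 ended the metestrus call, and any 1 other than metestrus replicates 5 and 7 ended the diestrus call, with adjusted p-values by edgeR up to 0.160 and 0.156. Without metestrus replicate 5 Has2 also passed the F test (edgeR adjusted p = 0.00724) and was lower in estrus than in proestrus (0.0128), as it was without metestrus replicate 7 (0.0204). Metestrus replicate 7 alone held 35 of the 46 metestrus counts, and the metestrus mean fell from 9.16 to 3.39 CPM without it.

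Cd44, the main hyaluronan receptor of most cells, was 2.59-fold higher in diestrus than in estrus. Its level was 38.0, 38.6 and 57.4 CPM in proestrus replicates 1, 2 and 3 and 47.3, 29.5 and 33.6 CPM in estrus replicates 3, 4 and 5. In metestrus it was 45.3, 117 and 69.2 CPM in replicates 5, 6 and 7. In diestrus it was 124, 70.7 and 90.5 CPM in replicates 3, 4 and 5. The diestrus samples did not overlap with those of estrus or proestrus, which overlapped with each other, and metestrus reached into all 3 of the other ranges. The stage means were 44.7 ± 11.1 in proestrus, 36.8 ± 9.30 in estrus, 77.0 ± 36.3 in metestrus and 95.0 ± 26.8 CPM in diestrus (SD, n = 3 each). The log2 fold change of diestrus against estrus was 1.37 ± 0.32 (SE; adjusted p = 0.00752 by edgeR), and this call held in all 22 alternatives of the analysis. Proestrus was lower than diestrus by a log2 fold change of -1.08 ± 0.31 (edgeR adjusted p = 0.0468), and this call was lost in 10 of 21 alternatives. It was lost without any 1 of the proestrus or estrus replicates, diestrus replicate 3 or diestrus replicate 5, with adjusted p-values by edgeR of up to 0.183. The F test missed the threshold without estrus replicate 5 (adjusted p = 0.0516 by edgeR) and with counts rebuilt from TPM (0.0547). For metestrus against estrus, where the log2 fold change of 1.06 did not pass (edgeR adjusted p = 0.0629), leaving out metestrus replicate 5 gave 1.34 and an adjusted p of 0.0105. Metestrus against proestrus also passed without it (log2 fold change 1.05, edgeR adjusted p = 0.0492). Of the Cd44 counts, 99.1% were assigned to the transcript Cd44-207, but tags near the 3' end cannot tell splice variants of its variable exons apart.

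Tnfaip6 (TSG-6), which transfers heavy chains onto hyaluronan and is best known from the expanding cumulus of the ovary, was not called in any comparison. Its values were 5.67, 8.03 and 5.04 CPM in proestrus replicates 1, 2 and 3 and 8.60, 8.51 and 7.72 CPM in estrus replicates 3, 4 and 5. They were 12.4, 5.64 and 8.87 CPM in metestrus replicates 5, 6 and 7 and 14.4, 8.34 and 16.9 CPM in diestrus replicates 3, 4 and 5. Diestrus lay above proestrus in all 3 samples but overlapped with estrus and metestrus. The largest pairwise difference, proestrus against diestrus, had a log2 fold change of -1.07 and did not pass (edgeR adjusted p = 0.0919). Because Has2 and Tnfaip6 are cumulus genes, markers of ovary were checked: 2 of 10 were tested and neither was called in any comparison, Fshr and Zp3 were at 0 in all 12 libraries, and the summed level of the 10 was 31.1 to 47.6 CPM in proestrus, 21.4 to 34.0 in estrus, 21.3 to 43.9 in metestrus and 22.5 to 23.3 in diestrus. Of 6 oviduct markers 2 were tested. Ovgp1 alone was called in the F test (23.2% of all genes were) and was higher in estrus than in proestrus (9.67% were). The summed level of the 6 was 18.2 to 31.7 CPM in proestrus, 49.5 to 61.4 in estrus, 13.4 to 29.5 in metestrus and 15.7 to 35.1 in diestrus. The part of oviduct RNA in the members' values was not tested. Of the transcript sequence of Tnfaip6, 2.74% of its 31-base words also occurred in other genes, which was the largest share among the 10 members.

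Vcan, the large proteoglycan whose core protein binds hyaluronan at one end, had the largest fold changes of the tested members after Has2 in the comparisons of estrus with each other stage. Its level was 47.0, 34.3 and 52.4 CPM in proestrus replicates 1, 2 and 3. In estrus it was 13.5, 11.4 and 9.09 CPM in replicates 3, 4 and 5. It was 17.0, 65.8 and 40.2 CPM in metestrus replicates 5, 6 and 7 and 63.4, 61.8 and 80.4 CPM in diestrus replicates 3, 4 and 5. All 3 estrus samples lay below the other 9 samples, diestrus lay above proestrus, and metestrus ranged from just above estrus into the diestrus range. The means were 44.6 ± 9.31 in proestrus, 11.3 ± 2.21 in estrus, 41.0 ± 24.4 in metestrus and 68.5 ± 10.3 CPM in diestrus (SD, n = 3 each). From proestrus to estrus Vcan fell by 1.99 ± 0.39 on the log2 scale (SE; edgeR adjusted p = 0.00459), which is 3.97-fold lower. Metestrus was 3.61-fold higher than estrus (log2 fold change 1.85 ± 0.40, edgeR adjusted p = 0.0144) and diestrus 6.09-fold higher (2.61 ± 0.38, edgeR adjusted p = 0.000439). The metestrus call was lost without estrus replicate 5 (adjusted p = 0.0713 by edgeR), and its log2 fold change was 1.36 without metestrus replicate 6 and 2.23 without metestrus replicate 5.

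The Vcan calls in diestrus against estrus and in estrus against proestrus were lost in 1 of 22 and 1 of 21 alternatives. In both cases that was the fit of counts rebuilt from TPM. The call in metestrus against estrus was lost in 5 of 21, that fit among them. With counts rebuilt from the authors' TPM values, which divide by transcript length, the log2 fold change of estrus against proestrus was -1.21 (edgeR adjusted p = 0.350) and that of diestrus against estrus was 1.73 (edgeR adjusted p = 0.136). The full-length transcript Vcan-203, of 12427 bases, held between 73.3% and 100% of the gene's counts in a sample, but between 12.8% and 100% of its TPM. The short transcript Vcan-208, of 861 bases, held between 0% and 14.9% of the counts and between 0% and 68.4% of the TPM.

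Among the small leucine-rich proteoglycans, decorin was lowest in diestrus. Dcn had 2578, 2511 and 2286 CPM in proestrus replicates 1, 2 and 3 and 3039, 3613 and 3462 CPM in estrus replicates 3, 4 and 5. It had 2561, 2916 and 3622 CPM in metestrus replicates 5, 6 and 7 and 2048, 1689 and 1454 CPM in diestrus replicates 3, 4 and 5. The 3 diestrus samples lay below the other 9, estrus lay above proestrus, and metestrus overlapped with both of these. The means were 2459 ± 153, 3371 ± 298, 3033 ± 540 and 1731 ± 299 CPM in proestrus, estrus, metestrus and diestrus (SD, n = 3 each). Diestrus was 1.95-fold lower than estrus (log2 fold change -0.96 ± 0.17, edgeR adjusted p = 0.00129), a call that held in all 22 alternatives. The other differences of Dcn did not pass, with edgeR adjusted p-values of 0.0692 for diestrus against metestrus (log2 fold change -0.81), 0.0735 for estrus against proestrus (0.46) and 0.0800 for proestrus against diestrus (0.51). Estrus against proestrus and proestrus against diestrus passed without metestrus replicate 5 (edgeR adjusted p = 0.0448 and 0.0437) and without metestrus replicate 7 (0.0424 and 0.0361). Diestrus against metestrus passed without metestrus replicate 6 (edgeR adjusted p = 0.0477).

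Ogn, a small proteoglycan of connective tissue, ran highest in proestrus. It had 268, 298 and 367 CPM in proestrus replicates 1, 2 and 3. It had 241, 183 and 189 CPM in estrus replicates 3, 4 and 5, 159, 230 and 206 CPM in metestrus replicates 5, 6 and 7, and 193, 95.7 and 99.5 CPM in diestrus replicates 3, 4 and 5. Every proestrus sample lay above the other 9 samples, and the ranges of the other stages overlapped. The means were 311 ± 50.6, 205 ± 31.8, 198 ± 35.8 and 129 ± 54.9 CPM from proestrus to diestrus (SD, n = 3 each). Proestrus was 2.40-fold higher than diestrus (log2 fold change 1.27 ± 0.25, edgeR adjusted p = 0.00636), and this call held in all 21 alternatives, with adjusted p-values up to 0.0398. The F test over the stages missed the threshold without proestrus replicate 3 (edgeR adjusted p = 0.0557). Without diestrus replicate 3, the highest of its stage, estrus was also lower than proestrus (edgeR adjusted p = 0.0362) and diestrus lower than estrus (0.00487).

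Bgn, a close relative of decorin, was higher in estrus than in proestrus. Its level was 146, 126 and 127 CPM in proestrus replicates 1, 2 and 3 and 225, 266 and 289 CPM in estrus replicates 3, 4 and 5. In metestrus it was 134, 169 and 371 CPM in replicates 5, 6 and 7, and in diestrus 164, 260 and 202 CPM in replicates 3, 4 and 5. Proestrus overlapped with neither estrus nor diestrus, and metestrus replicate 7 was the highest of all. Estrus was 1.96-fold higher than proestrus (log2 fold change 0.97 ± 0.30, edgeR adjusted p = 0.0400). That call was lost in 9 of 21 alternatives, among them the fits without any 1 of the proestrus or estrus replicates or diestrus replicate 5, with adjusted p-values of up to 0.120. The F test passed without metestrus replicate 7 (edgeR adjusted p = 0.00449) and without metestrus replicate 5 (0.0268), where metestrus was also higher than proestrus (log2 fold change 1.02, adjusted p = 0.0409). Without metestrus replicate 7 the metestrus mean of Bgn was 152 CPM in place of 225, and 2 further differences passed by edgeR: metestrus below estrus (log2 fold change -0.76, adjusted p = 0.0333) and proestrus below diestrus (-0.65, adjusted p = 0.0260).

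Lum and Fmod, which share binding sites on collagen, were not called in any comparison by the edgeR fit of all 12 samples with the filter on low counts. Lum had 276, 255 and 273 CPM in proestrus replicates 1, 2 and 3 and 159, 215 and 184 CPM in estrus replicates 3, 4 and 5. It had 210, 384 and 162 CPM in metestrus replicates 5, 6 and 7 and 265, 205 and 229 CPM in diestrus replicates 3, 4 and 5. Estrus and proestrus did not overlap, and metestrus spanned more than the other stages. Without metestrus replicate 6, the highest library, Lum passed the F test (edgeR adjusted p = 0.0454) and was lower in estrus than in proestrus (log2 fold change -0.54, adjusted p = 0.0260). Fmod had 5.67, 1.07 and 3.53 CPM in proestrus replicates 1, 2 and 3 and 4.30, 2.27 and 2.27 CPM in estrus replicates 3, 4 and 5. It had 1.54, 5.02 and 11.8 CPM in metestrus replicates 5, 6 and 7 and 7.92, 14.2 and 5.62 CPM in diestrus replicates 3, 4 and 5. The diestrus samples lay above all estrus samples, and the log2 fold change of 1.66 did not pass with all 12 samples (edgeR adjusted p = 0.0903). It passed without metestrus replicate 5 (edgeR adjusted p = 0.0475) and without the filter on low counts (0.0471).

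Stage by stage, edgeR called 2 of the 9 tested members in estrus against proestrus, where 17.1% of all genes were called. Bgn was higher (9.67% of all genes were) and Vcan lower (7.46%), and the median log2 fold change of the 9 was -0.29, against 0.02 over all genes. In metestrus against estrus 2 members, Has2 and Vcan, were called and both were higher, where 7.56% of all genes were called, 2.83% higher and 4.73% lower, with a median of 0.43 against 0.01. In proestrus against diestrus Ogn was higher and Cd44 lower, 2 calls where 8.53% of all genes were called, 4.62% higher and 3.91% lower, with a median of -0.62 against 0.00. Diestrus against estrus had the largest number, with 4 of 9 called against 22.8% of all genes. Vcan, Cd44 and Has2 were higher in diestrus (9.72% of all genes were) and Dcn was lower (13% were), with a median of 0.66 against 0.00.

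By edgeR no member was called in diestrus against metestrus, where 0.224% of all genes were called, 0.133% higher and 0.0913% lower. At an unadjusted edgeR p under 0.05 there were 3, Vcan, Dcn and Ogn. The share of all genes at that threshold was not counted, so these 3 have no background beside them. The adjusted test of DESeq2 called 1 member and 148 of all tested genes, and that of limma-voom 0 members and 14 genes. The median log2 fold change was -0.11, against -0.02 over all genes. In metestrus against proestrus the adjusted edgeR test also called 0 members, where 4.31% of all genes were called, 2.49% higher and 1.82% lower. The unadjusted test gave 3, Cd44, Bgn and Ogn, again without a share of all genes to set beside them. DESeq2 and limma-voom called 0 members after adjustment. The median there was 0.53 against 0.02. These comparisons share samples, so their fold changes are not independent of each other.

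**Figure D2:**
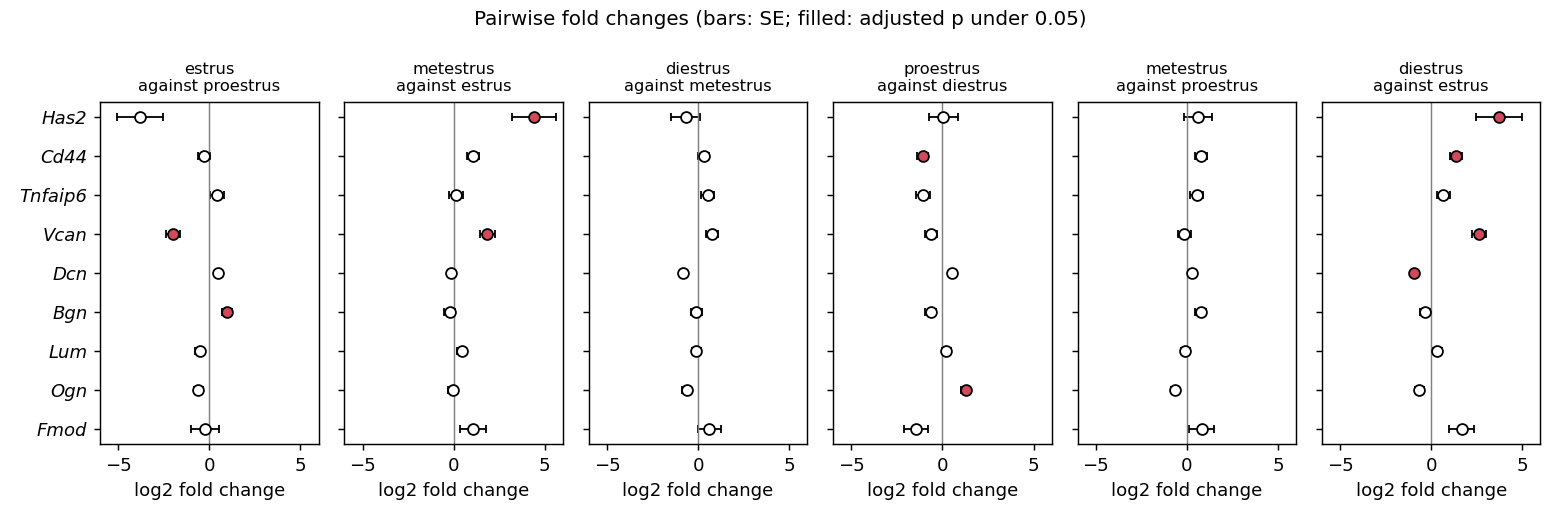
Log2 fold change (horizontal axis) of the 9 tested genes (vertical axis) in the 6 pairwise comparisons, 1 panel each; points are the edgeR estimates, bars 1 SE, and filled points have an adjusted p under 0.05. The panel of diestrus against estrus holds 4 filled points, Has2, Cd44 and Vcan above 0 and Dcn at -0.96, and the panels of diestrus against metestrus and metestrus against proestrus hold none.

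All stages share 1 estimate of the spread in these fits. Metestrus replicate 5 was the lowest of its stage for Has2, Cd44, Vcan, Dcn, Bgn, Ogn and Fmod, and metestrus replicate 7 the highest for Has2, Dcn, Bgn and Fmod. When only the 6 samples of a pair were fitted, estrus against proestrus had 5 members called, with Dcn (edgeR adjusted p = 0.0105), Lum (0.00958) and Ogn (0.00996) beside Vcan and Bgn. Proestrus against diestrus then also had 5, with Vcan (edgeR adjusted p = 0.0402), Dcn (0.0318) and Bgn (0.0209) beside Ogn and Cd44. Over all tested genes (12052 in the main fit), the called counts lay within 1270 to 2788 in estrus against proestrus. In proestrus against diestrus they lay within 540 to 1463. Both ranges cover the settings without a block that left out no single library, pair fits included. With the 6 samples of the pair Fmod was called in diestrus against estrus (edgeR adjusted p = 0.0210). Metestrus against estrus then had no member called, where 299 of all tested genes were, with Vcan at an edgeR adjusted p of 0.0681. Has2 was not among the genes tested in that fit. Of the 10 calls made with all 12 samples, those of Dcn and Cd44 in diestrus against estrus and of Ogn in proestrus against diestrus held in every alternative run.

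**Figure D3:**
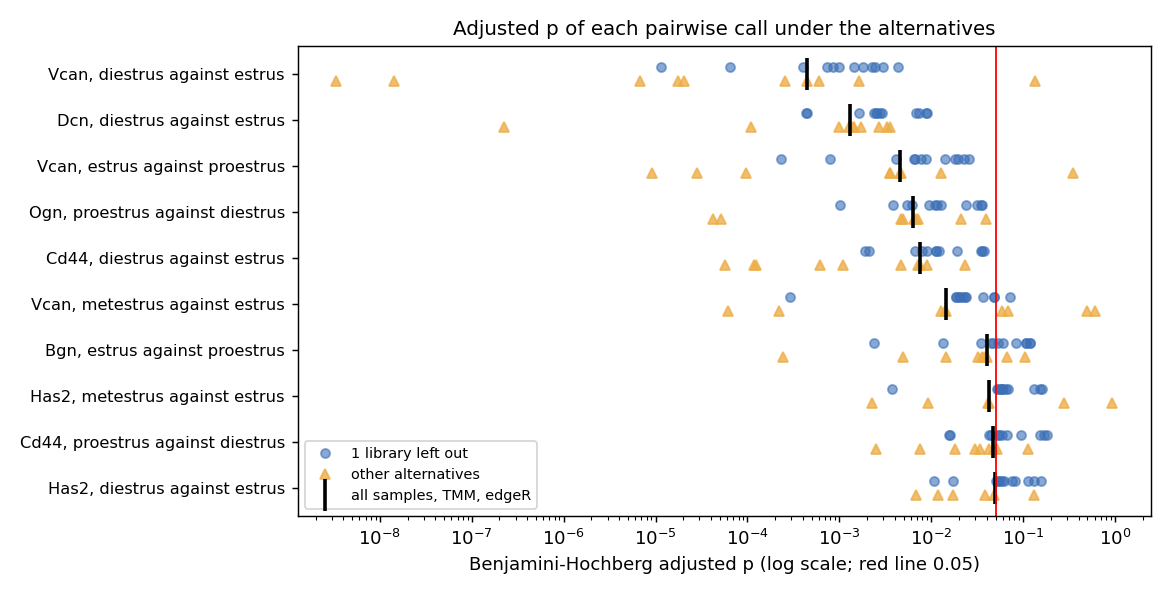
Adjusted p (horizontal axis, log scale) of the 10 pairwise calls (vertical axis) under each alternative; black ticks are the fit of all 12 samples, circles leave out 1 library, triangles are the other alternatives, and the red line is 0.05. All symbols of Dcn and Cd44 in diestrus against estrus and of Ogn in proestrus against diestrus lie left of the line, and most symbols of Has2 lie right of it.

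Genes that make the building blocks of hyaluronan were described beside the synthases. Of the 11 genes listed for synthesis and precursors, 9 were tested and 2 were called in the F test, against 23.2% of all genes. Both supply UDP-N-acetylglucosamine. Gfpt1, its rate-limiting enzyme, had 78.4 ± 8.43, 105 ± 22.0, 62.3 ± 19.2 and 54.4 ± 6.10 CPM from proestrus to diestrus (SD, n = 3; edgeR F test adjusted p = 0.0209). Uap1, which makes the last step, had 28.0 ± 4.19, 28.2 ± 1.03, 19.4 ± 7.25 and 13.0 ± 1.58 CPM (F test adjusted p = 0.0143 by edgeR). The Gfpt1 call was lost without estrus replicate 3 (edgeR adjusted p = 0.0834), estrus replicate 5 (0.0845), diestrus replicate 3 (0.0577) or diestrus replicate 4 (0.0523), and with counts rebuilt from TPM (0.0825). The Uap1 call was lost without diestrus replicate 4 (edgeR adjusted p = 0.0555). In diestrus against estrus Gfpt1 (edgeR adjusted p = 0.00713), Gfpt2 (0.0493) and Uap1 (0.00649) were lower and Has2 higher (0.0490). That is 1 higher and 3 lower of 9 tested, where 9.72% of all genes were higher and 13% lower. Gfpt2 did not pass the F test (edgeR adjusted p = 0.124) and is named after its values were seen.

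Of 10 genes listed for hyaluronan breakdown 7 were tested, and 1 was called in the F test, against 23.2% of all genes. That gene was Hexa, a subunit of lysosomal hexosaminidase, with 24.3 ± 3.23, 62.9 ± 11.1, 48.8 ± 12.3 and 34.9 ± 3.30 CPM from proestrus to diestrus (SD, n = 3; edgeR adjusted p = 0.00161). In estrus against proestrus 4 of the 7 were called higher and 1 lower, where 9.67% of all genes were higher and 7.46% lower. From proestrus to estrus Hexa rose 2.58-fold (edgeR adjusted p = 0.00106) and the hyaluronidase Hyal1 1.94-fold (0.0247). Hyal1, Gusb and Cemip are named after their values were seen. Gusb, the lysosomal glucuronidase, fell 1.53-fold (edgeR adjusted p = 0.0457). Cemip, a hyaluronan-binding protein needed for its depolymerisation, had 0.567 to 1.07 CPM in proestrus, under the 3-count limit, and 3.68 to 9.08 CPM in estrus (edgeR adjusted p = 0.0477). In diestrus against estrus Hexa (edgeR adjusted p = 0.00730) and Hyal1 (0.0417) were lower. That is 0 higher and 2 lower of 7 tested, where 9.72% of all genes were higher and 13% lower.

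Of 10 hyaluronan-binding and receptor genes 8 were tested and 3 called in the F test, against 23.2% of all genes. They were Cd44 and the toll-like receptors Tlr2 and Tlr4, which can respond to hyaluronan fragments. Unlike Cd44, both toll-like receptors were lower in diestrus than in estrus. Tlr2 had 7.13 ± 4.49, 20.2 ± 2.22, 5.54 ± 0.192 and 2.42 ± 0.416 CPM from proestrus to diestrus (SD, n = 3; edgeR F test adjusted p = 0.000735). Tlr4 had 16.0 ± 5.20, 27.3 ± 2.53, 17.1 ± 2.17 and 10.2 ± 2.29 CPM (F test adjusted p = 0.00882 by edgeR). Macrophage markers moved the same way between proestrus and estrus: all 7 tested of 8 were higher in estrus, and their summed level was 301 to 350 CPM in proestrus, 738 to 786 in estrus, 414 to 758 in metestrus and 434 to 615 in diestrus. Their part in the values of Tlr2, Tlr4 and the breakdown genes was not tested.

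Of 12 genes that crosslink hyaluronan 3 were tested, Tnfaip6, Itih5 and Hapln1. Itih5, an inter-alpha-trypsin inhibitor heavy chain, was called in the F test (edgeR adjusted p = 0.000168). It had 48.7 to 72.5 CPM in proestrus, 232 to 553 in estrus, 83.9 to 125 in metestrus and 107 to 134 in diestrus, and the estrus samples lay above the other 9. Estrus was 6.22-fold higher than proestrus (log2 fold change 2.64 ± 0.30, edgeR adjusted p = 0.00023). Hapln1, the link protein that locks Vcan onto hyaluronan, had 1.99 ± 0.406 CPM in estrus and 8.96 ± 2.45 CPM in diestrus (SD, n = 3). It was called in that comparison alone (edgeR adjusted p = 0.0275), and it is named after its values were seen.

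Of the 4 large aggregating proteoglycans 2 were tested and Vcan alone was called. Of 7 ADAMTS proteases that cleave versican 6 were tested, and 2 were called in the F test, against 23.2% of all genes. Adamts5 had 28.1 ± 4.67, 72.2 ± 9.70, 55.3 ± 5.05 and 45.1 ± 6.88 CPM from proestrus to diestrus (SD, n = 3; edgeR adjusted p = 0.000698). Adamts15 had 3.17 ± 0.882, 20.2 ± 5.76, 7.99 ± 3.12 and 7.76 ± 1.31 CPM (F test adjusted p = 0.00155 by edgeR). In estrus against proestrus, where Vcan was 3.97-fold lower, Adamts5 was 2.58-fold higher (edgeR adjusted p = 0.000434) and Adamts15 6.17-fold higher (0.000915), 2 of 6 where 9.67% of all genes were higher. With counts rebuilt from TPM the F test of Adamts5 did not pass (edgeR adjusted p = 0.0637).

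Of 18 small leucine-rich proteoglycan genes 10 were tested and 6 were called in the F test, against 23.2% of all genes, and Dcn and Ogn were among them. This list too was chosen with earlier results of these data known. Prelp, a proteoglycan that anchors basement membranes, had 22.6 ± 0.548, 75.5 ± 19.6, 57.5 ± 30.4 and 31.2 ± 9.45 CPM from proestrus to diestrus (SD, n = 3; edgeR adjusted p = 0.00643). Aspn (asporin) had 56.9 ± 12.0, 56.2 ± 4.91, 36.6 ± 11.5 and 24.3 ± 7.61 CPM (adjusted p = 0.00988 by edgeR). Tsku (tsukushi) ran the other way, with 6.40 ± 1.84, 8.05 ± 0.619, 7.35 ± 2.03 and 18.9 ± 3.59 CPM (adjusted p = 0.00482 by edgeR). The sixth, Omd (osteomodulin), had 12.4 ± 2.22, 5.06 ± 2.90, 5.42 ± 1.28 and 3.33 ± 1.50 CPM (adjusted p = 0.0238 by edgeR), and is named after its values were seen.

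Several of these genes sit side by side in the genome. Aspn, Omd and Ogn lie in that order on the plus strand of chromosome 13, with 14.9 kb between the first pair and 15.2 kb between the second, and Ecm2 lies 11.7 kb before Aspn. In proestrus against diestrus all 3 of Aspn, Omd and Ogn were higher, by 2.35-fold, 3.73-fold and 2.40-fold, with edgeR adjusted p-values of 0.00982, 0.0168 and 0.00636. They were the 3 higher genes of the 10 tested in the family, and 1, Tsku, was lower. Of all genes 4.62% were higher and 3.91% lower in that comparison. The Aspn and Omd calls in it were not rerun under the alternatives. Ecm2 was not called there (edgeR adjusted p = 0.983). On chromosome 10 Lum lies 47.0 kb after Dcn, and the pair differed in their calls: Dcn passed the F test and Lum did not. On chromosome 1 Fmod lies 116 kb from Prelp, which passed the F test while Fmod did not. Whether neighbours differed from each other was not tested.

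Of 28 genes that build chondroitin, dermatan and keratan sulfate, the sugar chains of these proteoglycans, 23 were tested and 5 were called in the F test, against 23.2% of all genes. Chsy1, which polymerises chondroitin, had 80.0 ± 12.8, 24.9 ± 3.66, 51.7 ± 22.6 and 73.8 ± 9.29 CPM from proestrus to diestrus (SD, n = 3; edgeR adjusted p = 0.00177). Like Vcan, a carrier of chondroitin sulfate, it was lower in estrus than in proestrus (log2 fold change -1.68 ± 0.26) and higher in metestrus and in diestrus than in estrus (1.05 ± 0.26 and 1.57 ± 0.26), all past the edgeR threshold. Chpf, its polymerising factor, had 29.6, 21.9, 42.3 and 41.9 CPM as stage means (adjusted p = 0.00728 by edgeR). The sulfotransferases Chst2 (7.53, 8.10, 12.8 and 23.5 CPM) and Chst14 (4.27, 4.44, 6.92 and 12.3 CPM) were highest in diestrus, with edgeR F test adjusted p-values of 0.00772 and 0.00910. Dsel, which turns chondroitin into dermatan, was highest in proestrus, with 41.1, 22.1, 26.1 and 23.7 CPM (adjusted p = 0.0156 by edgeR). The Chst14 call was lost without diestrus replicate 4 (edgeR adjusted p = 0.0558), and the Dsel call without proestrus replicate 2 (0.0940), without proestrus replicate 3 (0.0629) and with counts rebuilt from TPM (0.0561).

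**Figure D4:**
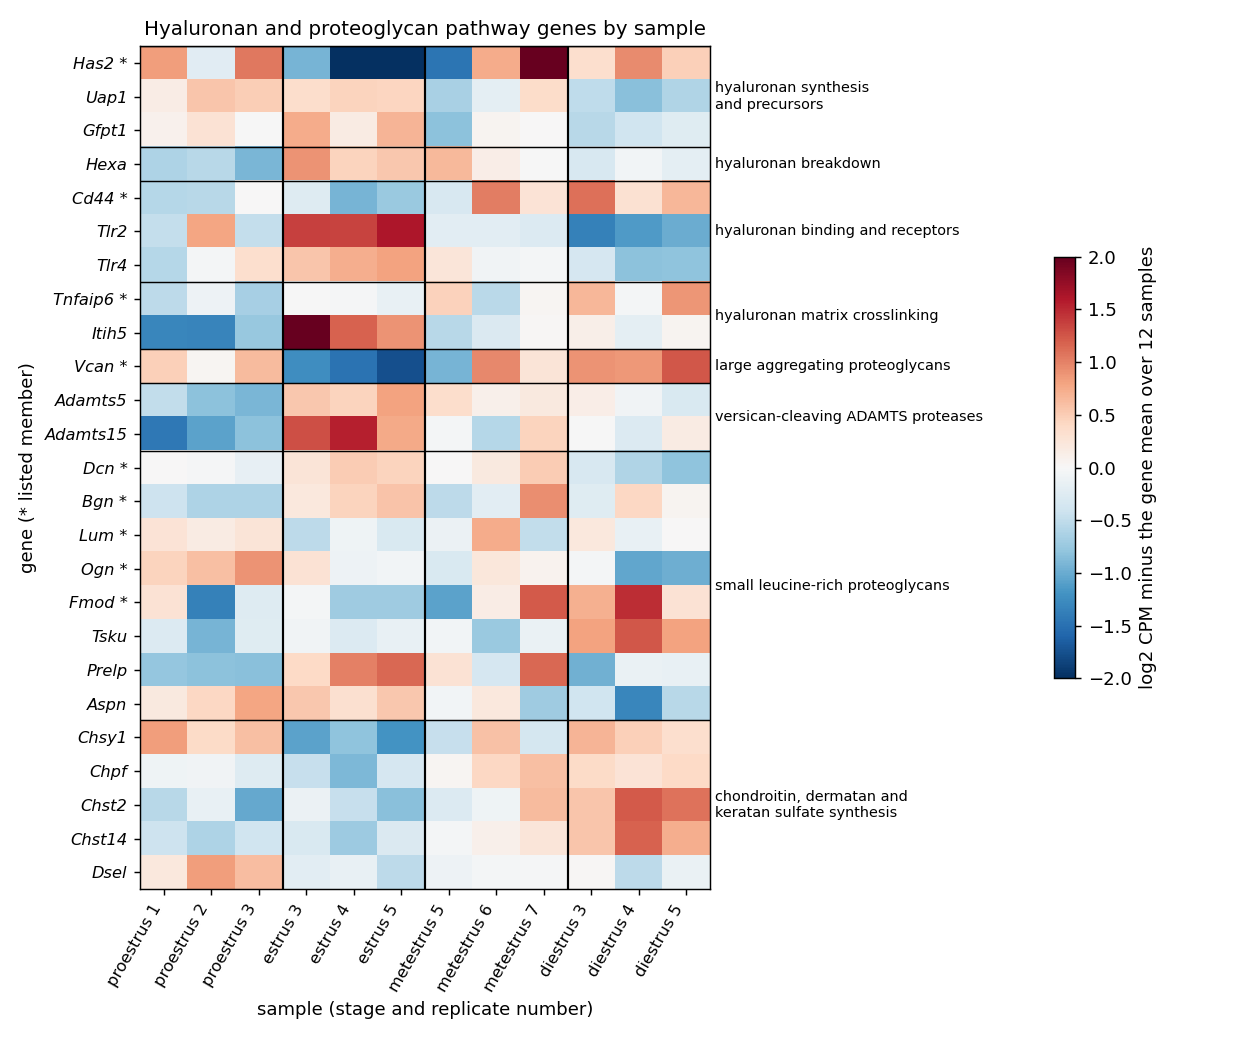
Log2 CPM minus the gene's mean over the 12 samples (colour, limited to 2 above and below 0) for the tested members, marked with an asterisk, and the pathway genes that differed over the stages and are named by the rule (rows), in the 12 samples by stage (columns). Vcan and Chsy1 are blue in the estrus columns where Itih5, Adamts5 and Adamts15 are red, and Vcan is blue in metestrus replicate 5 and red in metestrus replicate 6.

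The genes closest to each differing member were found by the root mean square distance between log2 CPM values centred on each gene's mean, over the 12 samples. For Vcan, whose own root mean square deviation was 1.02, they were Tppp3 at 0.29, Srm at 0.32 and Aard at 0.32. For Cd44 (0.65) they were Obsl1 at 0.27, Zfp354c at 0.28 and Mpdz at 0.29. Dcn (0.40) was closest to Acad12 at 0.15, Osbpl9 at 0.17 and Foxo1 at 0.18. Ogn (0.55) was closest to Sema3a at 0.25, Osbpl1a at 0.27 and Il4ra at 0.28. The nearest gene to Vcan, Tppp3, had 107 ± 3.86, 27.1 ± 3.29, 137 ± 118 and 169 ± 42.9 CPM from proestrus to diestrus (SD, n = 3).

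Marker RNA of several cell types also differed between the stages. Epithelial markers summed to 1883 to 2483 CPM in proestrus, 1677 to 2064 in estrus, 567 to 1204 in metestrus and 521 to 741 in diestrus, and 8 of 9 were lower in diestrus than in estrus. Fibroblast and stromal markers summed to 11468 to 12056 CPM in proestrus, 7936 to 8652 in estrus, 4926 to 13067 in metestrus and 8599 to 12122 in diestrus. Of the 12, 3 were higher and 0 lower in diestrus than in estrus, and 0 were higher and 5 lower in proestrus than in diestrus, in edgeR's adjusted test. In estrus against proestrus Pdgfra and Pdgfrb were higher and Col1a1 and Hoxa11 lower, where 9.67% of all genes were higher and 7.46% lower. The median log2 fold change of the 12 was 0.09 there, so the sums do not stand for each stromal marker. Smooth muscle markers summed to 6446 to 9073 CPM in proestrus, 8667 to 11123 in estrus, 5646 to 7725 in metestrus and 6425 to 6813 in diestrus. Of the 8, 4 were higher in estrus than in proestrus and 3 were lower in diestrus than in estrus. None of these marker sums had a marker at 0 in a whole stage. Their part in the differences of Vcan, Cd44, Dcn, Bgn and Ogn was not tested.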

How the data were processed

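Polyadenylated RNA of whole uterus was profiled in 12 libraries by 3' TagSeq. The authors deposited a table of 119414 transcripts per sample, with estimated counts that are not scaled (66.9% of values above 0 were not whole) and TPM values, per the file headers. The submitters' processing notes name FastQC, kallisto and DESeq2, with no roles; options, transcript set and strand are not given in the sources used here. Effective lengths were not used apart from those already in the TPM values.

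Transcripts were matched to GENCODE M21 (116640 matched; the rest held 0.619% to 0.774% of counts and were left out), and estimated counts were summed per gene and rounded. Genes were filtered with filterByExpr by stage, which left 12052. A quasi-likelihood model with TMM scaling was fitted to all 12 samples in edgeR 4.0.16 (R 4.3.3), with 1 coefficient per stage and no covariate. The F test over stages and 6 two-sided contrasts were each adjusted by Benjamini-Hochberg over all tested genes, and a call is an adjusted p under 0.05. Log2 CPM used a prior count of 2. The fit was also run on simulated counts. The outcome of that run is not reported here, so it lends no weight to the calls.

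Named were the 10 members, up to 5 genes per pathway list with the smallest F test p among those called, and the 3 tested genes nearest to each called member. The members and lists were chosen with earlier results of these data known. Alternatives were DESeq2 1.42.0, limma 3.58.1 (voom), other scaling and filters, TPM-derived counts, pair-only fits, a replicate block and leaving out each library. Promoters came from RefSeq. A gene of the breakdown list is not reported here.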

Additional observations from a re-analysis of the deposited data

How the results depend on the processing

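No called result changed sign under any alternative run. The number of members called in the F test was 4, against 2 with counts scaled from TPM and 6 without the filter on low counts. In diestrus against estrus it was likewise 4, against 2 from TPM, where Has2 was not among the genes tested, and 6 without the filter. In estrus against proestrus it was 2, against 4 without the filter on low counts, 4 with DESeq2, 0 from TPM and 5 with the 6 samples of the pair. In metestrus against estrus it was 2, against 0 each with limma-voom, counts from TPM and the 6 samples. Has2 was not among the genes tested in the fits from TPM and of the 6 samples. The number was 1 at a minimum mean of 50 counts, a filter that also leaves out Has2, which held 114 counts over the 12 libraries. In diestrus against metestrus it was 0, against 1 without the filter and 1 with DESeq2. In proestrus against diestrus it was 2, against 1 with limma-voom, 1 from TPM and 5 with the 6 samples. Leaving out 1 library gave 3 to 6 in the F test, 3 to 5 in diestrus against estrus, 0 to 1 in diestrus against metestrus, 1 to 4 in estrus against proestrus, 0 to 3 in metestrus against estrus, 0 to 2 in metestrus against proestrus and 1 to 4 in proestrus against diestrus. The cause of these shifts was not tested.

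The labels did not say whether same-numbered samples of different stages shared more than a number. The correlations of their deviations from the stage means were -0.0433 to 0.163. No pairs of different number were set beside them, so these values cannot decide that question. Numbers 1 and 2 occurred only in proestrus, and 6 and 7 only in metestrus. With the replicate number as a block, those libraries add nothing to the stage contrasts. Proestrus then rests on replicate 3 alone and metestrus on replicate 5 alone. Estrus and diestrus both hold numbers 3 to 5. Between them 6 members were called with the block, and 5 with the samples of those stages alone, where Has2 was not tested. Without the block, 4 members and 22.8% of all genes were called there. Only effect sizes are given for the contrasts with a single library. In metestrus against estrus the block fit gave log2 fold changes of 0.73 for Has2 and 0.52 for Vcan. It gave 2.085 for Vcan in diestrus against metestrus and 0.77 for Bgn in estrus against proestrus. Ogn in diestrus against estrus had an edgeR adjusted p of 0.00982 with the block. The F test calls of Tsku, Chst14 and Dsel were lost in that fit, whose F test takes in the single libraries of proestrus and metestrus.

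Over all tested genes, the counts called under the alternatives other than the block ran from 1675 to 3428 in the F test (2793 as reported), 1798 to 3242 in diestrus against estrus (2744), 1100 to 2788 in estrus against proestrus (2064), 519 to 1463 in proestrus against diestrus (1028), 299 to 1364 in metestrus against estrus (911), 42 to 1080 in metestrus against proestrus (519) and 0 to 256 in diestrus against metestrus (27). With the block, proestrus and metestrus rest on a single library each, so counts for their contrasts are not given. In diestrus against estrus the count with the block was within the range given. Scaling by library totals or DESeq2 size factors moved the median log2 fold change of all genes to at most 0.07 from 0. Depth limits Has1, Has2 and Fmod most, with single-digit counts in several libraries.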
